A study of Rattus norvegicus with 12 samples.

Results

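Cell death regulators were described in RNA-seq of the contused rat spinal cord. The 9 genes are Birc2, Birc3, Ripk1, Casp8, Ripk3, Mlkl, Hrk, Bcl2 and Bax, chosen by name as regulators of apoptosis and necroptosis, and all 9 were matched among the 17423 genes listed in each of 2 tables. Birc2, Hrk and Ripk3 were taken by Rat Genome Database identifier and Birc3 from the study's supplementary gene symbols, since the name Birc2 is also an older synonym of Birc3. Ripk1, Casp8, Mlkl, Bcl2 and Bax were identified by their order along the chromosome between genes of known identifier. To check this procedure, 2250 names were held back, in 5 rounds of 450. It returned a symbol for 1692 of them, and 1659 of these 1692 (98%) were right.

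The study compared AN (athymic nude, Hsd:RH-rnu/rnu) rats, which lack a functional thymus and have few T cells, with immunocompetent Sprague-Dawley (SD, Hsd:SD) rats. All were adult females, 16 to 18 weeks old, and all received a moderate contusion of 200 kdyn at the thoracic level. A segment of 1 mm through the injury was taken at 1 week (acute phase) or 8 weeks (chronic phase), with 3 rats in each of the 4 groups (acute SD, acute AN, chronic SD, chronic AN). No uninjured cord was among the groups analysed here. AN and SD rats are separate stocks, so the rnu genotype, T cell deficiency and the remaining genetic background cannot be told apart. The T cell markers matched (7 of 8) were low in every group and summed to 7.02 FPKM in SD and 3.46 in AN rats at 1 week, and to 7.75 and 8.34 at 8 weeks. Without Cd2, which NK cells also express, the other 6 summed to 5.82 and 1.74 at 1 week and to 5.86 and 4.53 at 8 weeks. Among them Cd3g had a log2FC of -2.37 and -0.88. At 8 weeks Cd3e (0.837 FPKM in SD and 0.962 in AN rats) and Zap70 (0.627 and 0.817) were instead higher in AN rats. Markers of neurons, oligodendrocytes and astrocytes were present in all groups, apart from Gfap, which was listed at 0 in chronic SD rats and may be a failed estimate there.

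The tables give 1 FPKM (fragments per kilobase of transcript, scaled to the fragments mapped) for each group of 3 rats, and values per rat and reads per gene were not analysed here. The spread between rats and the depth behind each gene are therefore unknown, so no value below carries an error or a P value, and no difference between strains or between phases could be set against replicate error. Strain differences are given as log2FC, the base-2 logarithm of FPKM in AN divided by FPKM in SD rats, with nothing added to either. Differences of at least 1.5-fold (log2FC of 0.58 or more in size) were counted among genes with a mean FPKM of at least 1 over both strains, 11068 (acute) and 11198 (chronic). The median log2FC of these genes was 0.01 in both phases. In bulk tissue, fewer cells of a type and less RNA per cell cannot be told apart.

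Apoptosis is executed by caspases and is started along 2 routes. Death receptors of the TNF receptor family assemble a complex in which RIPK1 and caspase-8 meet, and the mitochondrial route is set by the balance between protective BCL2 proteins and the pore former BAX, which BH3-only proteins such as HRK tip towards death. The ubiquitin ligases cIAP1 (Birc2) and cIAP2 (Birc3) modify RIPK1 and favour survival and NF-kB signalling. Where caspase-8 is inactive, RIPK1 can engage RIPK3, which phosphorylates MLKL, and MLKL then ruptures the plasma membrane. That form of death is necroptosis, and unlike apoptosis it releases cell contents that are inflammatory. Neurons and oligodendrocytes die by both forms after spinal cord injury.

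Upstream sequences are given for the 3 regulators with the largest strain differences, chosen after their values were seen. Birc2 and Ripk3 were higher in acute AN rats and Hrk was lower. Each is the 250 bases before the RefSeq transcript start on GRCr8, 5′ to 3′ on the minus strand, at chr8:13271541-13271790 for Birc2, chr15:33262026-33262275 for Ripk3 and chr12:44070562-44070811 for Hrk. Capitals mark matches, on either strand, to any of the 4 short motifs reported here, and NF-kB and interferon motifs that were also searched at first are not reported. The TATA box was searched as TATAAA. The AP-1 site was searched as TGANTCA and the GC box as GGGCGG. The cyclic AMP response element was searched as TGACGTCA.
Birc2: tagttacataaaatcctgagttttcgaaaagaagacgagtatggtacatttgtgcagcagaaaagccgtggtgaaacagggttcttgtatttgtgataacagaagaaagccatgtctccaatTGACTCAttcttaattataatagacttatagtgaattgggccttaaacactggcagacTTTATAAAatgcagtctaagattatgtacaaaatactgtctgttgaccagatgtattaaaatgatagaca
Ripk3: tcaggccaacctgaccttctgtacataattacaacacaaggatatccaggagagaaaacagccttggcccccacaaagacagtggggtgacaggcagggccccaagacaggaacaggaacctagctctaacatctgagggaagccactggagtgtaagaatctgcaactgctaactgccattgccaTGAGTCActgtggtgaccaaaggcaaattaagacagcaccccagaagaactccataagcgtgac
Hrk: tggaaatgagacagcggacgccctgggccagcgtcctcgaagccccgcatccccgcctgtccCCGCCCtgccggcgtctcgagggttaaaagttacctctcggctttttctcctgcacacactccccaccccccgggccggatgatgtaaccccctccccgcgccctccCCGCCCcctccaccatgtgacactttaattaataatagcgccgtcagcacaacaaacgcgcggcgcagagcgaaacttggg
The Birc2 and Ripk3 sequences each held TGANTCA, at bases -128 to -122 and -64 to -58 from the start, a motif present in 6.34% of all 33469 RefSeq promoter windows searched over the same length. Birc2 also held a pair of overlapping TATAAA matches on opposite strands (12.9% of all windows held this motif). The Hrk sequence held GGGCGG at bases -188 to -183 and -81 to -76 (30.5% of all windows). TGACGTCA (1.59%) was found in none of the members with a sequence. The windows differed in base composition. GC content was 34.4% for Birc2, 50.4% for Ripk3 and 63.6% for Hrk, beside a median of 51.2% over all windows. CpG dinucleotides numbered 3, 1 and 23, beside a median of 5. The table held 6 of the 9 members, and the Birc2 window belongs to a transcript that starts inside the annotated gene.

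Among all genes measured, 7.37% were at least 1.5-fold higher and 16.7% at least 1.5-fold lower in AN rats in the acute phase. Of the 9 regulators, 4 were higher (Birc2, Birc3, Ripk3 and Casp8) and 1 was lower (Hrk), with a median log2FC of 0.57. Hrk passed the FPKM limit through the SD group alone, and with a mean FPKM of at least 5 the count of lower regulators was 0. In the chronic phase 6.01% of genes were higher and 9.71% lower, and of the regulators 1 was higher (Birc2) and 0 were lower, with a median log2FC of 0.28. Birc2 was also the single regulator past 1.5-fold in both phases, where 2.05% of 10858 genes were. The regulators were chosen with earlier results of these data known, so these counts do not stand as independent evidence about cell death genes.

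**Figure D1:**
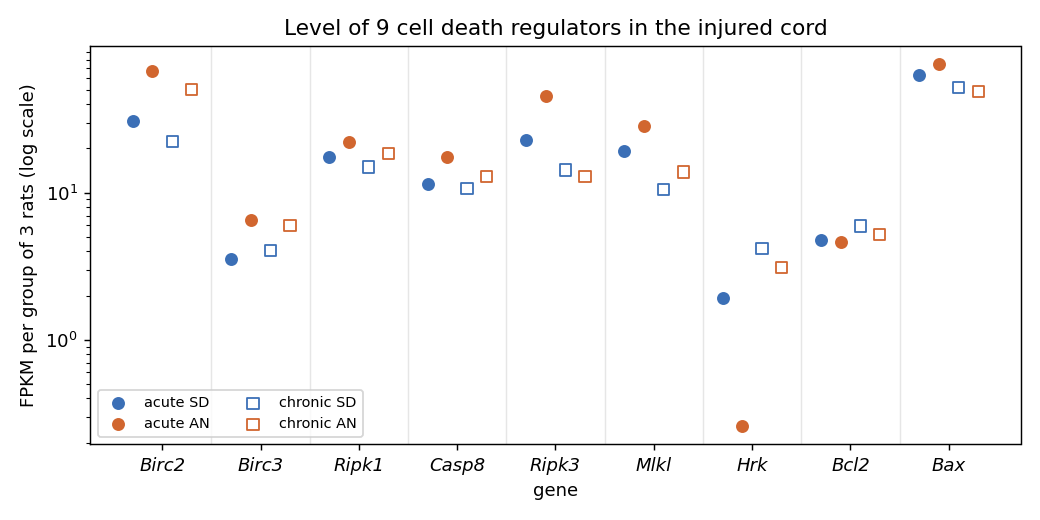
FPKM of the 9 regulators (log axis) in the 4 groups, 1 value per group of 3 rats, with filled circles for the acute and open squares for the chronic phase; no error bars can be drawn because values per rat were not analysed here. Birc2 is higher in AN rats in both phases, Ripk3 is higher at 1 week (45.2 against 22.9) and not at 8 weeks (12.8 against 14.3), and Hrk reaches its lowest level in acute AN rats (0.259).

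Birc2 encodes cIAP1, a ubiquitin ligase that keeps RIPK1 in its survival form. In the tables' RN4 coordinates the gene lies on chromosome 8 from 4649558 to 4667733. Its level was 30.8 in SD and 67.1 FPKM in AN rats at 1 week, and 22.4 and 50.4 at 8 weeks. In each phase the AN value lay above the SD value. AN rats were thus 2.18-fold higher at 1 week and 2.25-fold higher at 8 weeks (log2FC 1.12 and 1.17). In each phase 98.6% of measured genes had a lower log2FC. The strain difference at 8 weeks was therefore close to that at 1 week, and 63 of 10858 genes (0.58%) were at least 2-fold higher in AN rats in both phases.

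Birc3 encodes cIAP2, the paralogue of cIAP1, and lies beside Birc2 from 4682201 to 4696856 on chromosome 8. It was listed at 3.56 FPKM (SD) and 6.54 (AN) at 1 week and 4.07 (SD) and 5.98 (AN) at 8 weeks. Its log2FC was 0.88 in the acute phase, 1.84-fold, and 0.56 in the chronic phase, 1.47-fold and so just under the limit. In each phase the AN value lay above the SD value, as for Birc2. On the FPKM scale, which is per length, Birc2 was 8.67 times Birc3 in acute SD and 10.3 times in acute AN rats, and 5.51 and 8.42 times in the chronic groups.

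The remaining inhibitors of apoptosis did not share a pattern. Xiap, which binds and blocks caspases directly, was listed at 16.0 in acute SD and 14.8 in acute AN rats, and at 16.7 and 17.7 in the chronic groups (log2FC -0.11 and 0.09). Birc6, a very large ubiquitin-conjugating member, had a log2FC of 0.11 and 0.21. Naip6, a sensor of bacterial proteins that carries the same domain, was 1.63-fold higher in acute AN rats (10.1 and 16.6 FPKM, log2FC 0.71) and stood at 0.29 in the chronic phase. Naip genes are near-identical copies between which reads can be split, so this value is uncertain. Of the 5 inhibitors measured, 3 (Birc2, Birc3 and Naip6) were past 1.5-fold upward at 1 week, beside 7.37% of all genes measured, and 1 (Birc2) at 8 weeks, beside 6.01%. Birc2 and Birc3 were chosen with earlier results known, so these counts say nothing further about the family. The ratio of Birc2 to Xiap was 1.93 in acute SD and 4.55 in acute AN rats, and 1.34 and 2.84 in chronic SD and AN rats.

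The genes on either side of the Birc2 and Birc3 pair on chromosome 8 were examined after the values were known. Upstream in table order lay Tmem123, which encodes a membrane protein and was listed at 43.3 in acute SD and 76.9 in acute AN rats, and at 32.5 and 100.5 in the chronic groups (log2FC 0.83 and 1.63). Next to it was Mmp7, the metalloprotease matrilysin. Mmp7 was listed at 1.69 in acute SD and 46.3 in acute AN rats, and at 1.33 and 40.6 in the chronic groups (log2FC 4.77 and 4.93). On the other side, Yap1, a transcriptional coactivator of the Hippo pathway, had a log2FC of -0.24 and 0.07, and Cfap300 and Cep126 were lower in AN rats (acute log2FC -0.95 and -0.71). Farther out, Trpc6, a cation channel, had a log2FC of 1.88 and 0.99. In the order Mmp7, Tmem123, Birc2 and Birc3, the first 3 were at least 1.5-fold higher in AN rats in both phases, as were 2.05% of 10858 genes. The ends of this stretch were set after the values were seen, and Mmp20 and Mmp27 beyond Mmp7 were under the FPKM limit. Birc3 was past this limit in the acute phase and under it in the chronic phase (1.47-fold).

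**Figure D2:**
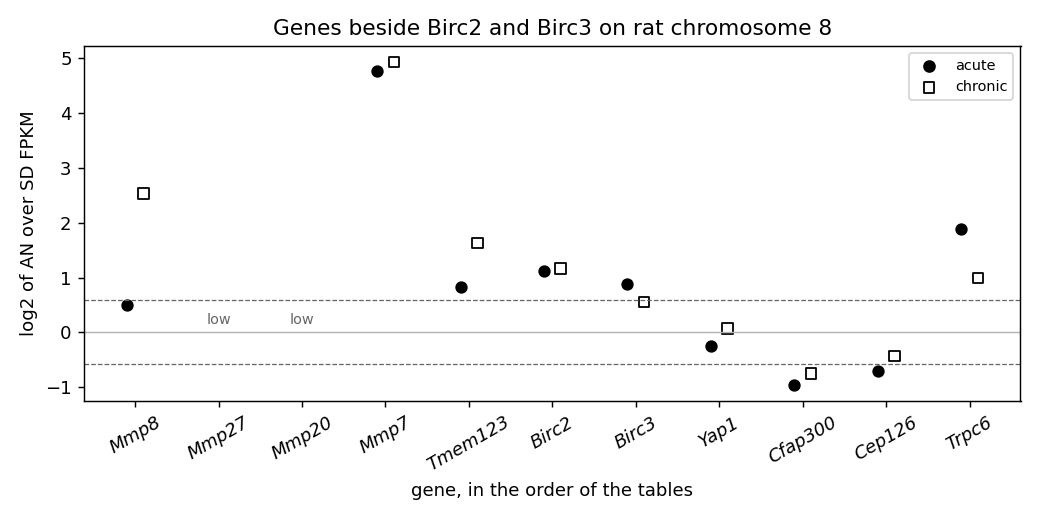
Log2 of AN over SD FPKM (vertical axis) for Birc2, Birc3 and the genes beside them on rat chromosome 8 in table order (horizontal axis), filled circles acute and open squares chronic, 1 value each; dashed lines mark 1.5-fold and "low" marks genes under the FPKM limit. Mmp7, Tmem123, Birc2 and Birc3 lie above 0 in both phases and Yap1 lies near 0 (-0.24 and 0.07).

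Ripk1 encodes the kinase at which survival, apoptosis and necroptosis part. It lies on chromosome 17 from 37183590 to 37216533. Its level was 17.6 in SD and 22.1 FPKM in AN rats at 1 week, and 15.0 and 18.5 at 8 weeks. The log2FC was 0.33 and 0.30, under 1.5-fold in each phase, and the 2 values were nearly alike.

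Casp8 encodes the initiator caspase of the death receptor route, which also cleaves RIPK1 and RIPK3 and so holds necroptosis back. It lies on chromosome 9 from 57389352 to 57437803. It was listed at 11.5 in SD and 17.4 FPKM in AN rats at 1 week, and at 10.7 and 13.0 at 8 weeks. The acute log2FC of 0.59 was just inside the limit, and the chronic value was 0.28. Casp8 fell short of 1.5-fold when the groups were scaled to equal summed FPKM (0.49), when the median log2FC was set to 0 (0.58) and with a pseudocount of 1 FPKM (0.55). The neighbouring gene Cflar encodes c-FLIP, a caspase-8 relative without protease activity that restrains it. Cflar had a log2FC of -0.02 (acute) and 0.19 (chronic). The ratio of Casp8 to Cflar was 1.20 in acute SD and 1.83 in acute AN rats, and 1.20 and 1.28 in the chronic groups.

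Of the 12 death receptor complex genes measured, Casp8 was the gene past 1.5-fold in the acute phase, near the 7.37% of all genes, and 0 were in the chronic phase. The list median log2FC was 0.00 and 0.12. The adaptors Tradd (0.01) and Traf2 (0.16), the ubiquitin assembly factors Rnf31 (0.05), Rbck1 (-0.01) and Sharpin (-0.01), and the kinase Map3k7 (0.10) lay close to 0 in the acute phase.

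Death ligands and receptors differed in direction. Tnfrsf12a, the receptor of the ligand TWEAK, was listed at 41.2 in acute SD and 86.5 in acute AN rats and at 22.2 and 16.0 in the chronic groups (log2FC 1.07 and -0.47). Tnfsf10, the ligand TRAIL, was lower in acute AN rats (6.96 and 4.33 FPKM, log2FC -0.68) and higher in chronic AN rats (10.0 and 15.5, 0.63). With a pseudocount of 1 FPKM both Tnfsf10 values fell just under 1.5-fold, and with equal summed FPKM the chronic value did. Ngfr, the p75 neurotrophin receptor of immature and injured Schwann cells, was lower in acute AN rats (54.9 and 35.3, log2FC -0.64) and stood at 0.51 in the chronic phase. The main TNF receptor, Tnfrsf1a, had a log2FC of 0.34 and 0.31, and Fas had -0.37 and -0.25. Of the 13 genes of this list 9 were measured, and Tnf, Faslg, Lta and Tnfrsf1b were not analysed here. Of the 9, 1 was higher and 2 were lower in the acute phase, and 1 was higher and 0 were lower in the chronic phase. Over all genes the shares were 7.37% and 16.7% at 1 week and 6.01% and 9.71% at 8 weeks, so counts this small do not set the list apart.

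Ripk3 encodes the kinase that commits a cell to necroptosis. It lies on chromosome 15 from 33947405 to 33956351. Its level was 22.9 in SD and 45.2 FPKM in AN rats at 1 week, and 14.3 and 12.8 at 8 weeks. Set beside each other across the separately normalized tables, the acute AN value stood above the other three. The acute log2FC was 0.98, 1.97-fold, and 98.0% of measured genes had a lower one. The chronic log2FC was -0.15, so the acute exceeded the chronic by 1.13, and 99.2% of genes had a smaller value of this difference.

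Mlkl encodes the pseudokinase that RIPK3 activates and that forms the lesion in the membrane. It lies on chromosome 19 from 41232624 to 41253266. It was listed at 19.2 in SD and 28.5 FPKM in AN rats at 1 week, and at 10.5 and 13.8 at 8 weeks. Its log2FC of 0.57 in the acute phase was 1.49-fold, just outside the limit, and the chronic value was 0.40. At 8 weeks the AN value of Mlkl lay above the SD value, and that of Ripk3 lay below it. The ratio of Ripk3 to Ripk1 was 1.30 in acute SD and 2.04 in acute AN rats, and 0.953 and 0.695 in the chronic groups. The ratio of Mlkl to Ripk3 was 0.838 and 0.631 in the acute groups, and 0.734 and 1.08 in the chronic groups.

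A pair of further genes of the necroptosis list passed 1.5-fold in both phases, in opposite directions. Zbp1, a sensor of nucleic acids induced by interferon that can engage RIPK3 without RIPK1, was lower in AN rats, with 8.23 FPKM (SD) and 4.11 (AN) at 1 week and 6.81 (SD) and 2.64 (AN) at 8 weeks (log2FC -1.0 and -1.37). Fkbp5 was higher, with 27.0, 41.1, 28.5 and 55.0 FPKM in the same order (0.61 and 0.95). With equal summed FPKM the acute value of Fkbp5 fell under 1.5-fold. Fkbp5 is best known as a co-chaperone induced by glucocorticoids, and its place in the list is less direct. Pgam5, a mitochondrial phosphatase (0.29 and -0.18), Ppm1b, a phosphatase that acts on RIPK3 (-0.08 and -0.14), and Chmp2a, a membrane repair factor (0.05 in each phase), stayed under 1.5-fold. Of the 8 necroptosis genes measured, 2 were higher and 1 was lower in the acute phase, and 1 was higher and 1 lower in the chronic phase. Over all genes 7.37% were higher and 16.7% lower at 1 week, and 6.01% and 9.71% at 8 weeks, and the acute count of 2 includes Ripk3.

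Markers of other cells differed between the strains alongside Birc2, Birc3, Casp8, Ripk3 and Mlkl. The 6 of 10 macrophage and microglia markers that could be matched summed to 1736 FPKM in acute SD and 2627 in acute AN rats, and to 1060 and 1282 in the chronic groups. All 6 were above SD in the acute phase, 4 of them by at least 1.5-fold (Cd68, Itgam, Cx3cr1 and Cd14), while in the chronic phase 3 of 6 were above SD and 0 were past 1.5-fold. The median log2FC of the 6 was 0.63 and 0.00, beside 0.98 and -0.15 for Ripk3. Cd68 made up most of the sum, and without it the other 5 summed to 621 and 871 at 1 week and to 454 and 441 at 8 weeks. The 4 cycling cell markers summed to 71.0 in acute SD and 140 in acute AN rats and to 14.7 and 13.7 in the chronic groups. The 6 fibroblast markers summed to 3617 and 5544 in the acute and 1527 and 2347 in the chronic groups. The part of these cells in the results for these 5 regulators was not tested.

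Hrk encodes Harakiri, a BH3-only protein that is expressed mainly in neurons and binds protective BCL2 proteins. It lies on chromosome 12 from 39520264 to 39543901. It was listed at 1.92 in SD and 0.259 FPKM in AN rats at 1 week, and at 4.20 and 3.09 at 8 weeks. Across the separately normalized tables, the acute AN value was far below the other three. The acute log2FC was -2.89, 7.40-fold lower in AN rats, and 1.35% of measured genes had a lower one. The chronic log2FC was -0.44. The acute minus the chronic log2FC was -2.44, and 0.359% of genes had a lower value of this difference. These are low levels. Hrk had a mean of 1.09 FPKM in the acute phase and passed the limit of 1 through the SD group alone, so its place among the genes counted depended on the difference itself. With a pseudocount of 1 FPKM the acute log2FC was -1.21 (5.11% of genes lower) and the acute minus the chronic log2FC was -0.87 (4.13% of genes lower). Hrk is left out altogether where a mean FPKM of at least 5 is required.

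Neuronal transcripts were lower in AN rats beside Hrk. The 7 of 10 neuron markers that could be matched (Snap25, Syt1, Nefl, Nefm, Tubb3, Eno2 and Stmn2) summed to 1017 FPKM (SD) and 143 (AN) at 1 week and 913 (SD) and 271 (AN) at 8 weeks. All 7 were at least 1.5-fold lower in AN rats in both phases, with a median log2FC of -3.16 and -1.95. The log2FC was -2.89 for Hrk and -2.83 for the neuron sum at 1 week, and -0.44 and -1.75 at 8 weeks. The acute value of Hrk rests on 0.259 FPKM in AN rats. With a pseudocount of 1 FPKM, which shrinks the ratio of so low a gene and hardly touches the sum, the acute values were -1.21 and -2.82, so how near they lie cannot be read from them. None of these markers was at 0 in any group. The part of neuron number in the Hrk result was not tested.

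**Figure D3:**
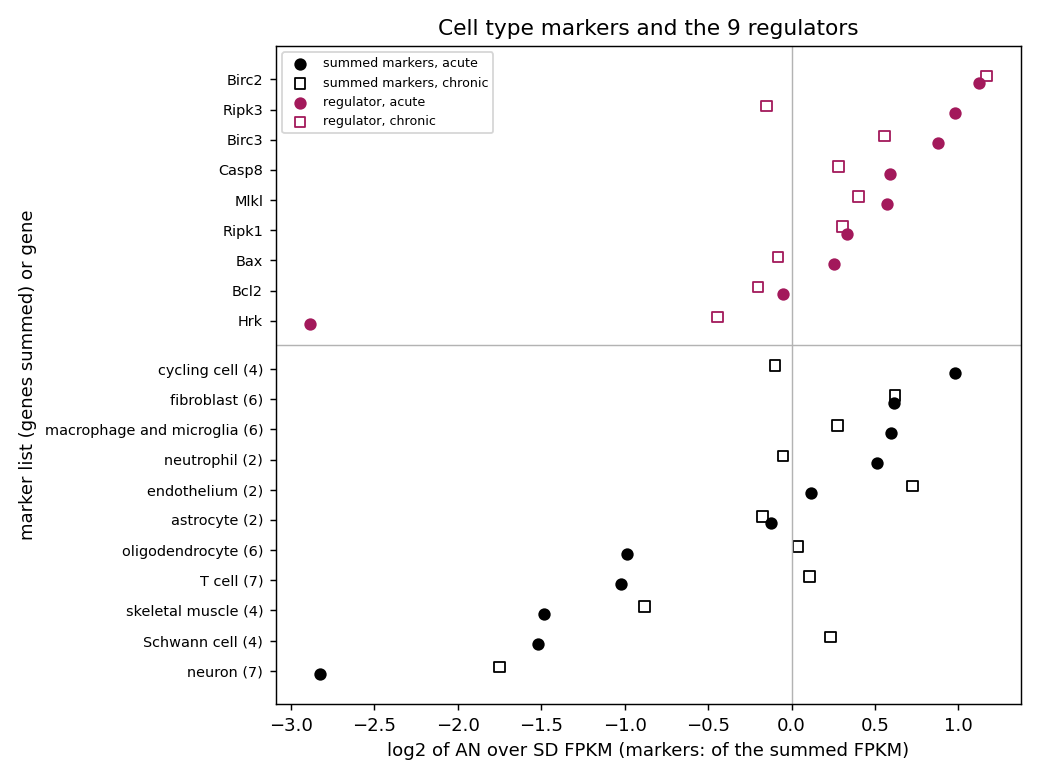
Log2 of AN over SD FPKM (horizontal axis) for the 9 regulators (upper block) and for the summed FPKM of 11 cell type marker lists (lower block, with the number of genes summed), filled circles acute and open squares chronic, 1 value each. In the acute phase Hrk is at -2.89 and the neuron sum at -2.83, and in the chronic phase they are at -0.44 and -1.75; the acute Hrk value rests on a level of 0.259 FPKM in AN rats and is -1.21 with a pseudocount of 1 FPKM.

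Bcl2 encodes the founding protective protein of its family. It lies on chromosome 13 from 12730735 to 12905108. It was listed at 4.76 FPKM (SD) and 4.59 (AN) at 1 week and 5.95 (SD) and 5.17 (AN) at 8 weeks, with a log2FC of -0.05 and -0.20. Its relatives Bcl2l1 (0.25 and -0.04) and Bcl2l2 (-0.14 and -0.10) were also under 1.5-fold in both phases. Bax, the pore former of the outer mitochondrial membrane, lies on chromosome 1 from 95933022 to 95938176. It was listed at 62.8 FPKM (SD) and 75.0 (AN) at 1 week and 51.8 (SD) and 49.0 (AN) at 8 weeks (log2FC 0.25 and -0.08). The ratio of Bax to Bcl2 was 13.2 and 16.3 in acute SD and AN rats and 8.72 and 9.47 in the chronic groups. Bak1, which acts beside Bax, had a log2FC of 0.45 and 0.17.

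Of 8 BH3-only genes listed, 5 were measured, and Bbc3, Pmaip1 and Bik were not analysed here. Among the 5, Hrk stood apart in direction. Bid, which caspase-8 cleaves to link the death receptor route to mitochondria, was listed at 22.3 in acute SD and 35.6 in acute AN rats (log2FC 0.68) and at 15.7 and 21.7 in the chronic groups (0.47). Bcl2l11, which encodes BIM, was listed at 9.32 and 12.5 in the acute groups (0.42) and at 4.43 and 8.82 in the chronic groups (0.99). Bmf had a log2FC of 0.28 and 0.44, and Bad 0.13 and 0.11. Of the 5 genes measured, 1 was higher and 1 lower in the acute phase, and 1 was higher in the chronic phase. The lower gene is Hrk, which passed the FPKM limit through the SD group alone. Over all genes 7.37% were higher and 16.7% lower at 1 week and 6.01% higher at 8 weeks.

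**Figure D4:**
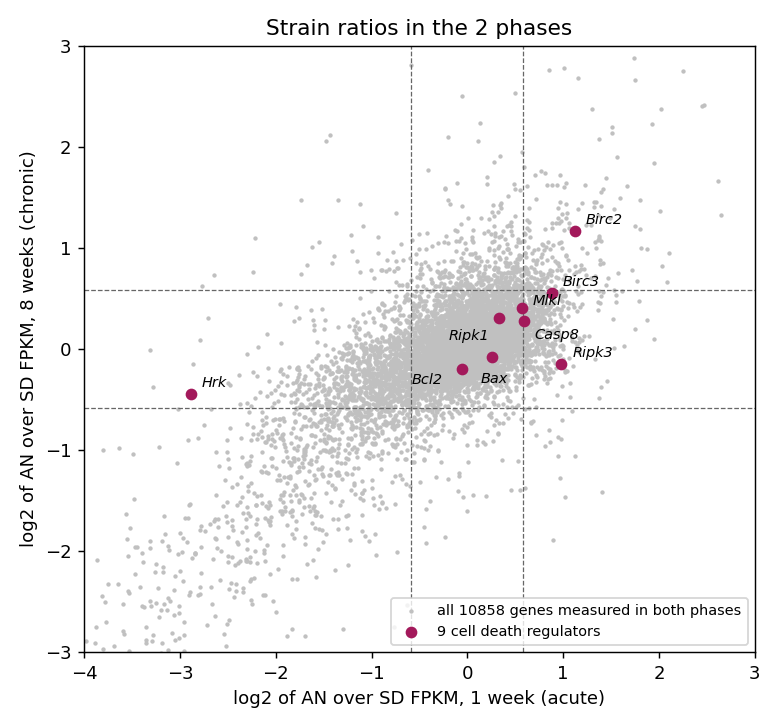
Log2 of AN over SD FPKM at 1 week (horizontal axis) and at 8 weeks (vertical axis) for the 10858 genes measured in both phases (grey, those inside the axes) and the 9 regulators (coloured); dashed lines mark 1.5-fold. Birc2 lies past 1.5-fold in both phases (1.12 and 1.17), whereas Ripk3 (0.98 and -0.15) and Hrk (-2.89 and -0.44) lie past it in the acute phase alone.

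The order of levels on the per-length FPKM scale was similar in the 4 groups. Bax led in 3 groups (62.8 in acute SD, 75.0 in acute AN and 51.8 in chronic SD rats) and was followed by Birc2. In chronic AN rats Birc2 came first with 50.4 and Bax next with 49.0. Ripk3 was the third in both acute groups, and in chronic AN rats it came sixth, after Ripk1 (18.5), Mlkl (13.8) and Casp8 (13.0). Birc3, Bcl2 and Hrk held the 3 lowest places in every group. Which neighbours in this order differ beyond the spread between rats cannot be stated from group values.

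The phases were normalized in separate tables, so levels at 1 and 8 weeks stand side by side as a description. The 8 week over 1 week ratio was 0.622 in SD and 0.284 in AN rats for Ripk3, and 0.545 and 0.485 for Mlkl. It was 0.726 and 0.751 for Birc2, 1.14 and 0.914 for Birc3, 0.852 and 0.834 for Ripk1, and 0.925 and 0.746 for Casp8. For Hrk it was 2.19 in SD and 11.9 in AN rats, the latter from an acute level of 0.259. Bcl2 stood at 1.25 and 1.13 and Bax at 0.825 and 0.653. The median log2 of this ratio over all genes was 0.00 in SD and 0.03 in AN rats.

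Beyond the 9 regulators, 68 genes from 13 cell death lists were measured. In the acute phase 4 were at least 1.5-fold higher and 4 lower in AN rats (5.88% each, beside 7.37% and 16.7% of all genes), with a median log2FC of 0.11. In the chronic phase 3 were higher and 1 was lower (4.41% and 1.47%, beside 6.01% and 9.71%), with a median of 0.11. Among the caspases, Casp2 (0.18 and 0.23), Casp6 (0.30 and 0.15) and Casp9 (-0.01 and 0.13) lay under 1.5-fold in both phases. So did the 6 apoptosome and mitochondrial factors measured, among them Apaf1 (0.50 and 0.30) and cytochrome c, Cycs (0.20 and -0.38). Of the 119 genes listed, 40 were not analysed here, Fadd, Tnf, Tnfaip3 and Mcl1 among them.

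**Figure D5:**
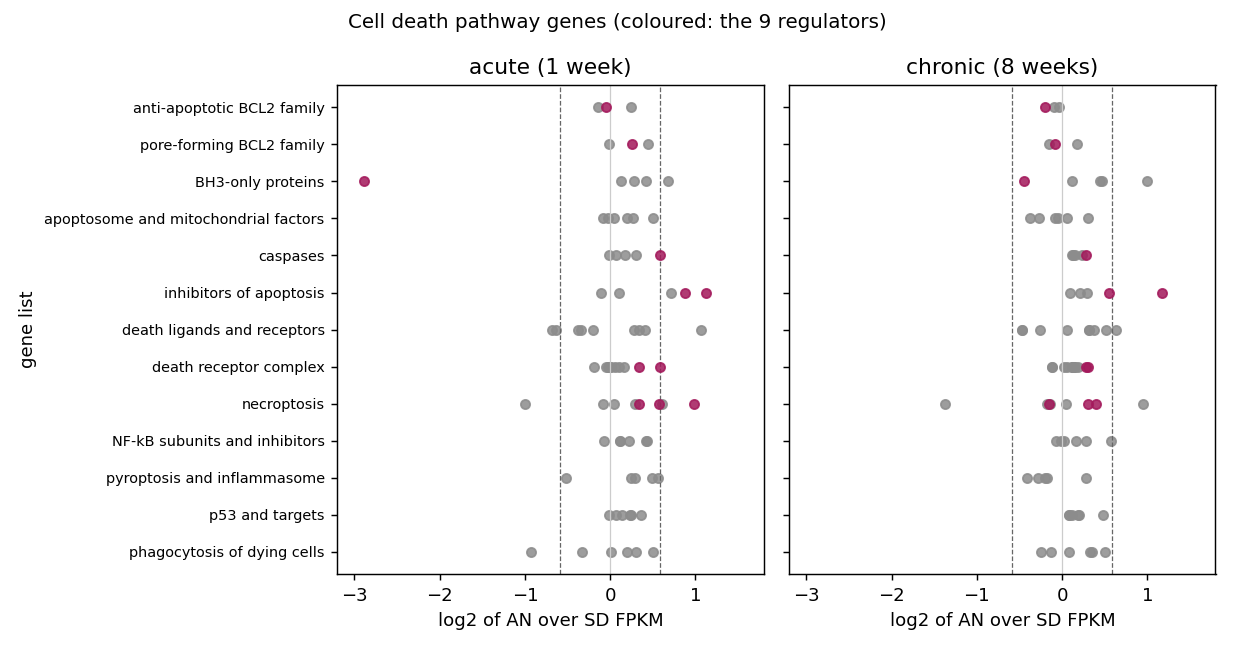
Log2 of AN over SD FPKM (horizontal axis) for each gene of 13 cell death lists (rows) in the acute (left) and chronic (right) phase, 1 point per gene and 1 value per point, with the 9 regulators coloured and others grey; dashed lines mark 1.5-fold and a gene in several lists is drawn in each. Most points lie between the lines, and of the 68 genes other than the regulators 4 lie to the right and 4 to the left of them in the acute phase.

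For each regulator past 1.5-fold in a phase, the list genes with the nearest pair of strain ratios were named, by Euclidean distance over the acute and chronic log2FC. This measure rests on 2 ratios from 4 group values. For Birc2 they were Fkbp5 (distance 0.56), Birc3 (0.66) and Bcl2l11 (0.72). For Birc3 they were Bid (0.22), Naip6 (0.31) and Mlkl (0.35). For Ripk3 they were Tnfrsf12a (0.34), Nlrc4 (0.44), which encodes an inflammasome scaffold, and Naip6 (0.52). Casp8 had close neighbours in Apaf1 (0.09), Nlrp3 (0.10) and Naip6 (0.12). For Hrk they were Tyro3 (1.98), Zbp1 (2.10) and Gsdme (2.39). With a pseudocount of 1 FPKM these distances were 0.38, 0.84 and 0.80.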

How the data were processed

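RNA was sequenced from 12 rats, 3 per strain and phase. The authors checked reads with FastQC, removed adapters with CutAdapt, used TopHat (1.5.0) to map paired reads to RN4, assembled transcripts with Cufflinks (0.0.6, as in the submitters' processing notes) using quartile normalization, merged them with CuffMerge and compared strains with CuffDiff. The FPKM values the authors deposited are 1 per group of 3 rats in 1 table per phase, each normalized separately. Ratios are relative to this scaling. The deposited tables also hold the authors' fold change, test statistic, P and Q values and significance flag, which were not used. Depth per rat and per gene is not in the values used here, so their precision is unknown, and no test or interval was computed.

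From the FPKM, log2 ratios of AN over SD were computed within each table with Python 3.11.15, numpy 2.4.6 and pandas 2.3.3 (figures with matplotlib 3.10.9). Genes needed a mean FPKM of at least 1 and both groups above 0, which left out 6 acute and 3 chronic genes of sufficient level. Alternatives were pseudocounts, other scalings, other limits on fold and FPKM, and directly named genes alone, with all regulators kept. The T cell sum without Cd2, the macrophage sum without Cd68, and the pseudocount for the Hrk difference and its nearest genes were added after the values were seen.

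Identifiers were matched to symbols through the supplementary gene symbols and the synonyms of the GRCr8 RefSeq gene table (4413), then by an alignment of gene order between those anchors (7724). Several ways of matching were tried, and this one was kept with its held-out accuracy and the number of list genes named in view. Each way that named a regulator gave it the same identifier. Coordinates are as in the tables, and sequences and their positions are RefSeq GRCr8.

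The regulators and gene lists were chosen with earlier results of these data known, and the lists were written from general knowledge. Named genes are all regulators, list genes past 1.5-fold (at most 5 per list and phase), and the 3 list genes nearest each regulator past 1.5-fold. Other list genes, chromosome neighbours, ratios of regulators, printed sequences and motifs were chosen after their values were seen. NF-kB and interferon motifs were also searched at first and are not reported. The 11 marker lists cover neurons, macrophages and microglia, T cells, oligodendrocytes, astrocytes, Schwann cells, neutrophils, endothelium, fibroblasts, skeletal muscle and cycling cells. Some genes of the lists are not reported here by name.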

Additional observations from a re-analysis of the deposited data

How the results depend on the processing

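Of 370 alternative values, 353 stayed on the same side of 1.5-fold or, for counts, within 1.5 times the reported one, and 17 moved. The setting called directly named genes alone kept all regulators, also those identified by gene order. None of the single regulators changed sign. Of 310 log2 values, 9 did, all medians of lists: BH3-only proteins (-2.89 and -0.44), phagocytosis (-0.93 and -0.13) and chronic necroptosis (0.05) with directly named genes alone, acute anti-apoptotic BCL2 (0.05) and chronic necroptosis (0.05) with a mean FPKM of at least 5, and the acute death receptor complex (near 0) under both rescalings. With a 2-fold limit 1 regulator (Birc2) was higher in the acute phase, and of the other list genes 1 was higher and 0 were lower at 1 week and 0 were higher at 8 weeks. With equal summed FPKM, 2 other list genes were higher in the acute phase, since Bid and Fkbp5 fell under 1.5-fold. With directly named genes alone, 2 were higher at 1 week and 1 at 8 weeks. Without the FPKM limit 2 were lower in the chronic phase, and with a mean FPKM of at least 5 there were 0. That limit also left 0 regulators lower in the acute phase, since Hrk no longer entered. Some acute list medians moved when directly named genes and the regulators alone were kept, because few genes then remained. These were BH3-only proteins (-2.89), caspases (0.59), death ligands and receptors (-0.64) and phagocytosis of dying cells (-0.93). The caspase value is that of Casp8 itself, which was identified by gene order. No paired analysis was possible because the tables hold 1 value per group, and leaving out a rat was not possible for the same reason. A rat that stands apart from its group therefore could not be seen. Equal summed FPKM shifts every log2FC by -0.10 at 1 week and -0.07 at 8 weeks. Among the regulators this took Casp8 alone under 1.5-fold (0.49 at 1 week). Acute Mlkl (0.57) and chronic Birc3 (0.56) lay under that limit before the shift.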

Other observations

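Genes of the inflammasome, NF-kB and p53 lists that passed the FPKM limit were under 1.5-fold. Left out by that limit were Gsdmd (0.405 FPKM in SD and 0.252 in AN rats at 1 week, 0.716 and 0.658 at 8 weeks) and Perp (0.963 and 0.558, then 1.21 and 0.658). Of the 5 pyroptosis and inflammasome genes measured, 0 passed 1.5-fold in either phase, and the list median log2FC was 0.30 at 1 week and -0.20 at 8 weeks. Nlrp3, the sensor of the classical inflammasome, was listed at 12.8 in acute SD and 18.0 in acute AN rats and at 6.88 and 8.33 in the chronic groups. Pycard, the adaptor that joins sensors to caspase-1, was listed at 89.1 and 105.4 in the acute and 61.0 and 46.0 in the chronic groups. Il1b, a cytokine released by this route, was low in all 4 groups, from 1.21 to 2.01 FPKM. The 6 NF-kB genes measured of 9 listed (medians 0.17 and 0.09) and the 6 p53 genes measured of 11 listed (0.19 and 0.15) also held 0 past 1.5-fold.

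Of 9 genes listed for the phagocytosis of dying cells, 6 were measured. Of the 6, 0 were higher and 1 was lower at 1 week, beside 7.37% and 16.7% of all genes. At 8 weeks 0 passed 1.5-fold, beside 6.01% higher and 9.71% lower over all genes. Tyro3, a receptor for dying cells, was lower in acute AN rats (36.0 and 18.9 FPKM, log2FC -0.93) and near SD in the chronic phase (44.4 and 40.5, -0.13). Mertk, the related receptor of phagocytes, was listed at 30.3 and 43.0 in the acute and 22.0 and 31.2 in the chronic groups (0.50 in each phase), and Axl at 141 and 142 in the acute groups (0.02).

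Other marker lists gave these summed FPKM in acute SD, acute AN, chronic SD and chronic AN rats. Oligodendrocyte markers (6 of 8 matched) summed to 2766, 1396, 2619 and 2690. Schwann cell markers (4 of 5) summed to 1626, 568, 1549 and 1822. Skeletal muscle markers (4 of 6) summed to 24.0, 8.59, 13.9 and 7.55. Neutrophil markers (2 of 5) summed to 22.1, 31.4, 15.3 and 14.8, and endothelial markers (2 of 5) to 67.8, 73.5, 67.7 and 112. The neutrophil sum was mostly Csf3r (log2FC 0.60 and -0.14), and Ngp went the other way in each phase (-1.41 and 0.85). The astrocyte marker Gfap was listed at 0 in chronic SD rats and at 5824 in chronic AN rats, and a listed 0 can be a failed estimate, while at 1 week it was listed at 3957 in SD and 1424 in AN rats (log2FC -1.48). Slc1a2 had a log2FC of -1.69 and -0.27, and Gja1 0.12 and -0.15. The astrocyte point in the plot of markers leaves Gfap out in both phases and rests mostly on Gja1.

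On chromosome 8, Mmp8, a neutrophil collagenase that lies beyond Mmp7, was listed at 38.3 FPKM (SD) and 54.3 (AN) at 1 week and 2.27 (SD) and 13.1 (AN) at 8 weeks (log2FC 0.50 and 2.53). Near Hrk on chromosome 12, Nos1, the neuronal nitric oxide synthase, was listed at 2.20, 0.367, 1.86 and 0.379 in the same order (log2FC -2.58 and -2.29), and between them stood Fbxw8 (-0.12 and -0.05), Tesc (-2.08 and -0.86) and Fbxo21 (-0.69 and -0.23). The acute log2FC of Hrk (-2.89) was near that of Nos1, and its chronic log2FC (-0.44) was closer to 0. Ftl1, the ferritin light chain gene beside Bax, was listed at 472, 683, 378 and 653 (0.53 and 0.79).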
